A study of Mus musculus with 6 samples.

Results

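The nuclear-encoded subunits of respiratory complexes II to V, together with cytochrome c, were examined in mouse embryonic fibroblasts (MEFs) with and without H2AX. The list holds 34 genes: 4 of complex II, 9 of complex III, cytochrome c, 10 of complex IV and 10 of complex V. A gene was taken from probe sets that carry its symbol, old or current, and no other, and of several probe sets the one with the highest mean over the 6 arrays was used. In this way 33 of the 34 genes were measured, out of 19938 genes on the array, and the gene left out was Cox7c of complex IV.

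Complex II, succinate dehydrogenase, passes electrons from succinate to coenzyme Q, and is also an enzyme of the citric acid cycle. Complex III passes electrons from coenzyme Q to cytochrome c, and complex IV, cytochrome c oxidase, passes them on to oxygen. Complexes III and IV pump protons across the inner mitochondrial membrane, and complex V, the ATP synthase, uses the returning protons to make ATP. Most of these subunits are made from nuclear genes and imported, while a few core subunits of complexes III, IV and V are encoded in mitochondrial DNA. Cytochrome c also takes part in apoptosis when it is released from mitochondria.

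RNA was taken from untreated MEFs with H2AX (WT, 3 arrays) or without it (KO, 3 arrays), and hybridised to Gene ST arrays of Affymetrix, on which a gene is read by several short probes. H2AX is a histone H2A variant that is phosphorylated around DNA breaks, and the study asked which genes of oxidative metabolism differ in its absence. The cells of both genotypes were cultured in the same serum-containing medium, and the sources used here give neither mouse strain nor passage, nor whether the 3 arrays of a genotype came from separate cultures. The p-values below therefore measure the spread between arrays, which may be technical, and anything particular to a MEF line cannot be told apart from the genotype.

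The H2ax transcript (H2afx on the array), that of the targeted gene, was at log2 values of 8.96, 9.18 and 9.0 on the WT arrays and 7.69, 7.77 and 7.67 on the KO arrays, a difference of -1.34 on the log2 scale (limma adjusted p = 5.8e-07). The fibroblast label was checked with 12 markers, whose median log2 value lay between 10.72 and 10.94 on the WT arrays and between 10.82 and 10.89 on the KO arrays. Of these markers 6 were higher and 5 were lower in KO cells (91.7% called, against 33.4% of all genes). Among them were Thy1 (log2 fold change 4.03) and Dcn (log2 fold change -2.15), while Vim was at a mean of 13.21 in WT and 13.14 in KO cells. The medians of the list were thus near each other although most of the 12 markers differed between genotypes. The medians of the leukocyte, epithelial, endothelial and muscle lists lay between 4.81 and 5.91 on all 6 arrays. Of 10 leukocyte genes measured, Cd68 was higher in KO cells and Cd14 was lower. Of 6 endothelial genes, Cdh5 and Emcn were lower, and of 8 muscle genes, Acta1 was higher. Of 8 epithelial genes, 0 were called, while over all genes 33.4% were called. Cdh5 and Emcn were at means of 5.58 and 5.10 in WT and 5.11 and 4.70 in KO cells, where signal above background was not established. Among Y-linked genes the log2 fold change was -2.88 for Kdm5d, -4.04 for Eif2s3y and -3.73 for Uty, and Xist was at 4.53 in WT and 4.56 in KO cells, so that this difference between the MEF lines cannot be told apart from the genotype. In bulk RNA, fewer cells of a type and less RNA per cell cannot be told apart either.

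Of the 33 subunits, 7 were higher in KO cells and 6 were lower, at an adjusted p under 0.05 from limma. Those higher were Uqcrc1, Uqcrq, Uqcr10 and Uqcr11 of complex III, Cox4i1 and Cox5a of complex IV and Atp5o of complex V. Those lower were Sdhc and Sdhd of complex II, Uqcrb of complex III, Cycs, Cox5b of complex IV and Atp5c1 of complex V. The share of subunits that was higher was 21.2%, against 18.4% of all genes tested, and the share that was lower was 18.2%, against 15.0% of all genes. In either direction 39.4% of the subunits passed, against 33.4% of all genes, so that the subunits differed between genotypes about as often as other genes on this array. None of the subunits passed with a fold-change over 2, which 5.3% of all genes did. When each gene's spread was taken from its own arrays alone, as in the test of the study's methods, the calls of Sdhd, Uqcrc1, Uqcrb, Uqcrq, Uqcr10, Uqcr11 and Cox5a ended (adjusted p from 0.052 for Uqcrq to 0.14 for Uqcrc1).

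The log2 fold changes of the subunits ran from -0.46 for Uqcrb to 0.59 for Cox4i1, or from 1.38-fold lower to 1.51-fold higher in KO cells. Their median was 0.05, against 0.02 over all genes, with 19 estimates above 0 and 14 below. The median size of the change, without its sign, was 0.16, against 0.13 over all genes. The KO and WT arrays did not overlap for 16 subunits (48.5%), 8 in each direction, and for 44.8% of all genes. The complexes did not move as blocks: complexes III, IV and V each held members that were higher and members that were lower, and in complex II the 2 members called were both lower. The median log2 fold change was -0.17 for complex II, 0.13 for complex III, 0.02 for complex IV and 0.08 for complex V. With each array left out in turn, the median ran from -0.20 to -0.10 for complex II, from 0.07 to 0.17 for complex III, from -0.06 (without WT replicate 1) to 0.07 for complex IV and from 0.05 to 0.09 for complex V.

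**Figure D1:**
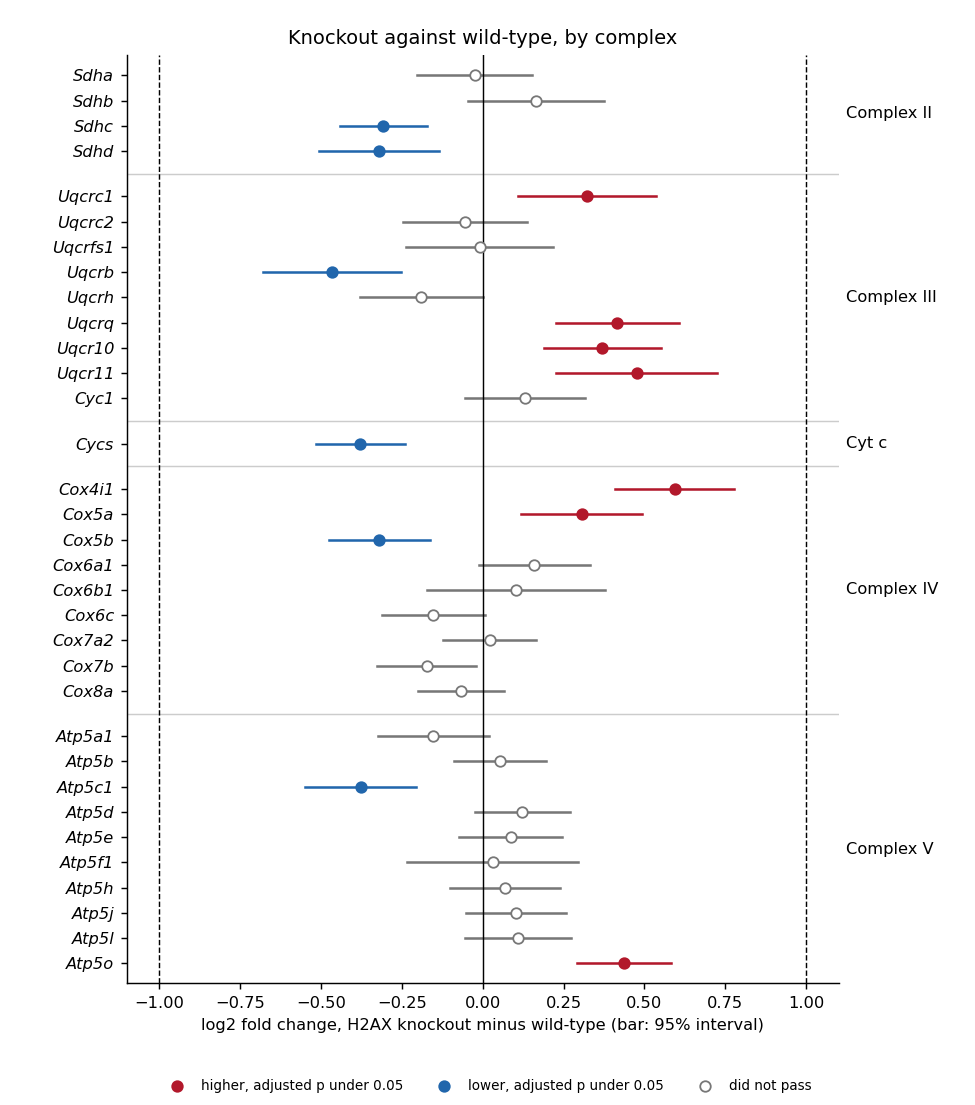
Log2 fold change of each of the 33 measured subunits, KO minus WT, grouped by complex, with its 95% interval from limma as a bar and the 2-fold lines dashed. Filled points passed an adjusted p under 0.05, with 7 higher in red and 6 lower in blue, and every point lies inside the 2-fold lines.

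Upstream sequence was read for the subunits from a RefSeq table of promoters (GRCm38.p6), which held 29 windows of 26 of the 34 genes, each from 250 bases before to 50 bases after a transcription start. Sdhc, Uqcrc2, Uqcrb, Uqcrq, Cyc1, Cox4i1, Cox6c and Atp5a1 had no entry. Genes of the respiratory chain are known targets of nuclear respiratory factor 1 (NRF1) and of the ETS factor GABP, and the study examined Nfe2l2, a factor that acts at antioxidant response elements. The 250 bases before the start are shown for 4 called subunits, 2 that were higher (Uqcr11 and Atp5o) and 2 that were lower (Sdhd and Atp5c1), as examples of windows with an NRF1, ETS or antioxidant response element core. They are written 5′ to 3′ on the strand of the gene, which is the minus strand in all 4, with matches to these 3 cores on either strand in capitals; matches to the CCAAT box and the Sp1 core are not marked. Atp5c1 has a second window in the table, from another start, in which the 250 bases before the start held no match to the marked cores.
Uqcr11, chr10:80406822-80407071, ETS core in capitals: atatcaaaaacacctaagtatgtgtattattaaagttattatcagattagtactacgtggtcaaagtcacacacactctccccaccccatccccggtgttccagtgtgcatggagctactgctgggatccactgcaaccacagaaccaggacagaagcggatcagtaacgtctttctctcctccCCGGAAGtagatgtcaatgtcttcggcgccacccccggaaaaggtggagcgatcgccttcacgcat
Atp5o, chr16:91931631-91931880, antioxidant response element core in capitals: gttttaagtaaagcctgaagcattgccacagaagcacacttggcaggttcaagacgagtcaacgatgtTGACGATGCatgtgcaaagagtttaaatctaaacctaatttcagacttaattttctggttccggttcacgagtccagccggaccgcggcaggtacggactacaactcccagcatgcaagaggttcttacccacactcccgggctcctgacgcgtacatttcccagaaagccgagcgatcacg
Sdhd, chr9:50603850-50604099, NRF1 core and, nearer the start, ETS core in capitals: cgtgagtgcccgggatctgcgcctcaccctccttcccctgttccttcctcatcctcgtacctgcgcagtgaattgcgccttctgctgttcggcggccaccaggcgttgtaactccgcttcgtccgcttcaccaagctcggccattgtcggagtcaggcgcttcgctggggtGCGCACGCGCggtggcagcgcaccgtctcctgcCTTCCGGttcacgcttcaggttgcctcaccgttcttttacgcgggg
Atp5c1, chr2:10080433-10080682, NRF1 core in capitals: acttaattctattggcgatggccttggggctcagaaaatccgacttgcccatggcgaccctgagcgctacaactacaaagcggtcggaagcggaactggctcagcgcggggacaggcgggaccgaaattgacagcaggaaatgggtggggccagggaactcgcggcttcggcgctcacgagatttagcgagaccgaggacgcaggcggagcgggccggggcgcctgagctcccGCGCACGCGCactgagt

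Motifs were searched on both strands of the whole windows. Of the 26 subunit genes with a window, 5 were higher in KO cells, 4 were lower and 16 were not called, and Cox7c was not measured. Over all genes on the array 33.4% were called. The NRF1 core (GCGC, any pair of bases, GCGC) was found in 24.1% of subunit windows and in 6.23% of all 32851 windows, or 8.57% of the 21262 windows of protein-coding genes, which are given in the same way below. It lay in 7 subunit genes, of which Atp5o and Uqcrc1 were higher in KO cells and Atp5c1 and Sdhd were lower, and in Atp5o the match lay outside the 250 bases shown. The ETS core (CCGGAAG) was found in 37.9% of subunit windows and in 8.86% of all windows (11.6% of coding ones), and in 11 genes, of which Uqcr11 was higher, Sdhd was lower and the others were not called. Both motifs were therefore found in more subunit windows than windows at large, and each was found among higher, lower and uncalled subunits.

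The YY1 core (AANATGGC) was found in 13.8% of subunit windows and 6.05% of all windows (6.37% of coding ones). It lay in 4 subunit genes, none of them called. The CCAAT box (CCAAT) was found in 51.7% against 37.4% (38.2% of coding ones), among them Uqcr10, which was higher, and Atp5c1 and Cycs, which were lower. The Sp1 core (GGGCGG) was found in 34.5% against 35.7%, and against 46.2% of coding windows, among them Cox5a, which was higher, and Cycs and Sdhd, which were lower. The antioxidant response element core (TGACNNNGC) was found in 6.90% against 12.4% (13.0% of coding ones), in Atp5o, which was higher, and Cox5b, which was lower. A match of letters is a description of the window, and binding was not measured.

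In complex II, 2 of 4 subunits were lower and 0 were higher, against 15.0% and 18.4% of all genes. The members called were the membrane anchors, Sdhc and Sdhd. Sdhc, which with Sdhd holds the enzyme in the membrane and forms the coenzyme Q site, was at log2 values of 10.22, 10.27 and 10.32 on the WT arrays and 9.96, 9.97 and 9.95 on the KO arrays. All KO values lay below all WT values, and the 3 KO arrays lay closer together than the WT arrays. This gave a log2 fold change of -0.31 (SE 0.06, adjusted p = 0.0029), or 1.24-fold lower. Sdhd was at 9.65, 9.67 and 9.75 in WT cells and at 9.52, 9.22 and 9.37 in KO cells. The groups did not overlap, KO replicate 2 was the lowest, and the log2 fold change was -0.32 (SE 0.08, adjusted p = 0.013). Without WT replicate 3, it was -0.29 and did not pass (adjusted p = 0.053). The call of Sdhd also ended with the test of the study's methods (adjusted p = 0.086), which left 1 member of complex II called.

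The catalytic subunits of complex II did not pass. Whether they differed from the membrane anchors was not tested. Sdha, the flavoprotein that oxidises succinate, differed by -0.02 on the log2 scale (95% interval -0.20 to 0.15, adjusted p = 0.86). For Sdhb, the iron-sulfur subunit between Sdha and the membrane anchors, it was 0.16 (95% interval -0.05 to 0.37, adjusted p = 0.23), with WT replicate 1 at 9.23 and the other WT arrays at 9.47 and 9.61.

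In complex III, 4 of 9 subunits were higher in KO cells (44.4%, against 18.4% of all genes) and 1 was lower (11.1%, against 15.0%), and all 5 are among the calls that ended with the test of the study's methods. Uqcrc1, one of the core proteins on the matrix side, was at 9.69, 9.69 and 9.68 on the WT arrays and at 9.92, 10.24 and 9.86 on the KO arrays. The WT arrays were nearly identical, and the spread lay in the KO arrays, where replicate 2 was the highest. The log2 fold change was 0.32 (SE 0.10, adjusted p = 0.026), and it did not pass when any WT array was left out (adjusted p of 0.066, 0.077 and 0.069 without WT replicates 1, 2 and 3).

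Uqcrq, Uqcr10 and Uqcr11 are small subunits of the membrane part of complex III. Uqcrq was at 9.20, 9.17 and 9.09 in WT cells and at 9.44, 9.74 and 9.52 in KO cells, a log2 fold change of 0.42 (SE 0.08, adjusted p = 0.0038). Uqcr10 was at 8.77, 8.57 and 8.53 in WT cells and at 8.97, 9.08 and 8.92 in KO cells, a log2 fold change of 0.37 (SE 0.08, adjusted p = 0.0053). Both were higher on every KO array than on any WT array, and highest on KO replicate 2. Uqcr11 was at 10.03, 10.49 and 10.37 in WT cells and at 10.71, 10.87 and 10.74 in KO cells. The WT arrays spread more than the KO arrays because WT replicate 1 was low, but the groups did not overlap. The log2 fold change was 0.48 (SE 0.11, adjusted p = 0.0079), the second-largest rise among the subunits.

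Uqcrb, a small subunit that contacts cytochrome b and the coenzyme Q site, was the member of complex III that was lower. It was at 11.90, 11.91 and 11.88 on the WT arrays and at 11.56, 11.20 and 11.54 on the KO arrays, with a gap between the groups and KO replicate 2 the lowest. KO cells thus differed by -0.46 on the log2 scale (SE 0.09, adjusted p = 0.0039), or 1.38-fold lower. Its 3 probe sets gave -0.46, -0.50 and -0.41.

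The other members of complex III, among them the redox proteins Cyc1 and Uqcrfs1, did not pass. Cyc1, the haem-carrying cytochrome c1, had a log2 fold change of 0.13 (95% interval -0.06 to 0.32, adjusted p = 0.29), and Uqcrfs1, the Rieske iron-sulfur protein, one of -0.01 (95% interval -0.24 to 0.22, adjusted p = 0.96). Uqcrc2, the core protein that pairs with Uqcrc1, had one of -0.06 (95% interval -0.25 to 0.14, adjusted p = 0.69). Uqcrh, the acidic hinge protein by which cytochrome c docks, was at 10.35, 10.06 and 10.13 in WT cells and at 10.04, 9.92 and 10.00 in KO cells. Its groups did not overlap, but by a narrow gap, and the log2 fold change of -0.19 did not pass (adjusted p = 0.12).

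Cycs, the somatic cytochrome c that carries electrons between complexes III and IV, was at 12.52, 12.52 and 12.50 on the WT arrays and at 12.19, 12.07 and 12.15 on the KO arrays. The spread within each genotype (SD 0.01 in WT and 0.06 in KO cells, n = 3) was small beside the gap between them. The log2 fold change was -0.38 (SE 0.06, adjusted p = 0.00094), or 1.30-fold lower. A second probe set of the gene gave -0.41, and a dim one, at a mean of 5.14, gave a difference near 0 (adjusted p = 1.0 over all probe sets).

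In complex IV, 2 of 9 measured subunits were higher and 1 was lower (22.2% and 11.1%, against 18.4% and 15.0% of all genes). Cox4i1, the widely expressed isoform of subunit 4, through which ATP regulates the enzyme, was at 9.59, 9.64 and 9.80 on the WT arrays and at 10.17, 10.38 and 10.27 on the KO arrays. The groups were far apart beside their spread (SD 0.11 in each, n = 3). This was a log2 fold change of 0.59 (SE 0.08, adjusted p = 0.00032), or 1.51-fold, the largest rise among the 33 subunits. Cox5a, which contacts Cox4i1 on the matrix side, was at 8.73, 8.89 and 8.96 in WT cells and at 9.14, 9.06 and 9.28 in KO cells. The groups did not overlap, and the log2 fold change was 0.31 (SE 0.08, adjusted p = 0.017). Without WT replicate 1 it was 0.24 (adjusted p = 0.06), and without KO replicate 3 it was 0.25 (adjusted p = 0.083).

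Cox5b, a zinc-binding subunit on the matrix side, was at 11.35, 11.27 and 11.16 in WT cells and at 10.99, 10.88 and 10.96 in KO cells. All KO arrays lay below all WT arrays, and the log2 fold change was -0.32 (SE 0.07, adjusted p = 0.0056), with -0.32 also from the other probe set. Cox4i1 and Cox5a were thus higher and Cox5b lower in the same cells.

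The other 6 measured members of complex IV did not pass. Cox7b, an X-linked subunit, was at 12.24, 12.07 and 12.07 in WT cells and at 11.97, 11.97 and 11.92 in KO cells. Its groups did not overlap, and its log2 fold change was -0.17 (95% interval -0.33 to -0.02, adjusted p = 0.082), which passed with a trended, robust variance prior (adjusted p = 0.038). The log2 fold change was 0.16 for Cox6a1, a membrane subunit at the contact between monomers (95% interval -0.01 to 0.33, adjusted p = 0.15), and -0.15 for Cox6c, another membrane subunit (95% interval -0.31 to 0.01, adjusted p = 0.14). Cox6b1, which binds on the intermembrane side, was at 10.51 on WT replicate 1 and between 10.89 and 11.05 on the other arrays, with a log2 fold change of 0.10 (95% interval -0.17 to 0.38, adjusted p = 0.59). For Cox7a2 and Cox8a, small membrane subunits in their widely expressed forms, it was 0.02 (95% interval -0.12 to 0.17) and -0.07 (95% interval -0.20 to 0.07).

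In complex V, 1 of 10 subunits was higher and 1 was lower (10.0% each, against 18.4% and 15.0% of all genes). Atp5o, which forms the top of the stalk that holds the catalytic head in place (oligomycin sensitivity conferring protein), was at 10.31, 10.47 and 10.36 on the WT arrays and at 10.81, 10.81 and 10.84 on the KO arrays. The KO arrays lay within a narrow range, above every WT array, and the log2 fold change was 0.44 (SE 0.06, adjusted p = 0.00052), or 1.35-fold. Atp5c1, the gamma subunit, which forms the turning shaft inside the head, was at 11.42, 11.49 and 11.45 in WT cells and at 11.19, 10.94 and 11.11 in KO cells. The groups did not overlap, KO replicate 2 was the lowest, and the log2 fold change was -0.38 (SE 0.08, adjusted p = 0.0036), or 1.30-fold lower.

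The remaining 8 members of complex V did not pass. Of the catalytic head, Atp5a1 (alpha) had a log2 fold change of -0.15 (95% interval -0.32 to 0.02, adjusted p = 0.17) and Atp5b (beta), where ATP is made, one of 0.05 (95% interval -0.09 to 0.20, adjusted p = 0.59). Of the rotor foot, Atp5d (delta) was at 12.77, 12.83 and 12.85 in WT cells and at 12.99, 12.85 and 12.98 in KO cells. Its groups were separated by less than the spread in either, and the log2 fold change was 0.12 (adjusted p = 0.20). For Atp5e (epsilon), next to it, the log2 fold change was 0.09 (95% interval -0.07 to 0.24).

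The other 4 belong to the outer stalk and the membrane part. Atp5f1 (subunit b, now Atp5pb) was at 10.16, 10.19 and 10.12 in WT cells and at 10.42, 9.89 and 10.26 in KO cells. Its KO arrays lay on both sides of the WT arrays, and the log2 fold change was 0.03 (95% interval -0.23 to 0.30). Atp5h (subunit d), Atp5j (coupling factor 6) and Atp5l (subunit g) had log2 fold changes of 0.07, 0.10 and 0.11, with 95% intervals of -0.10 to 0.24, -0.05 to 0.26 and -0.05 to 0.27. Among the 10 listed members of complex V, the estimate was below 0 for Atp5a1 and Atp5c1.

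**Figure D2:**
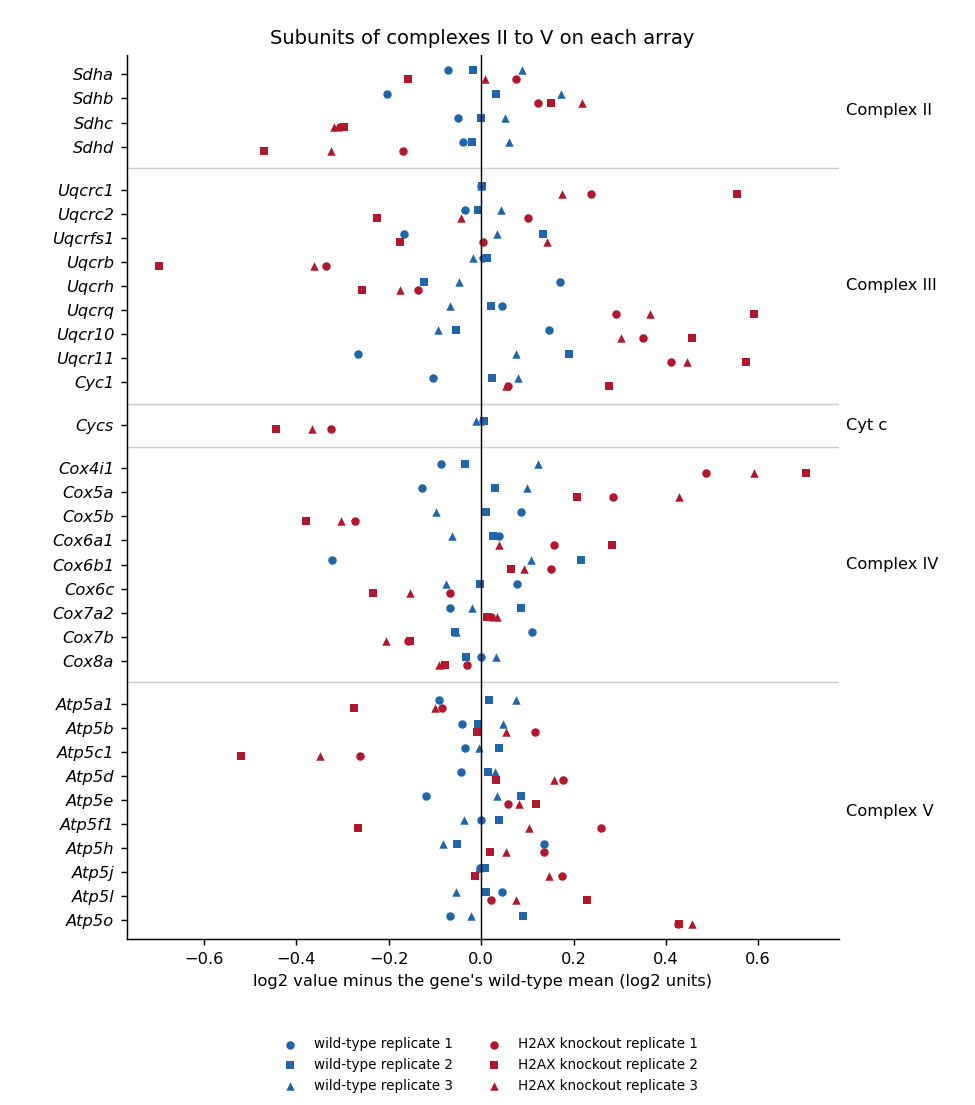
Log2 value of each subunit on each of the 6 arrays, relative to the mean of the WT arrays of that gene, grouped by complex, with each genotype in its own colour. For the 13 called subunits the KO arrays all lie on one side of the WT arrays, and KO replicate 2 is the farthest out for 10 of them.

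The size of the differences varied with the KO arrays. In 10 of the 13 called subunits (76.9%) KO replicate 2 lay farthest from the WT mean in the direction of the call, which held for 41.0% of all called genes, while KO replicate 3 was farthest in 3 and KO replicate 1 in 0. Over all 33 subunits, KO replicate 2 lay farthest from the KO mean in 22 (66.7%), against 49.4% of all genes. Whether RNA quality or culture had a part in this was not tested. Without KO replicate 2, each of the 13 calls still passed.

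For 9 of the measured genes, 25 probe sets carried the gene's symbol alone. All probe sets of a gene had the same sign, but for the dim one of Cycs the sign is uninformative (-0.00018, SE 0.13). The probe sets of Uqcrb, Cox5b, Cox6c, Atp5f1, Atp5h and Cox7b lay within 0.10 of each other on the log2 scale. For Uqcr11 the second probe set gave 0.42 (adjusted p = 0.080 over all probe sets) beside 0.48. The 6 probe sets of Atp5l gave 0.11 to 0.19. Cycs was the gene in which a probe set stood apart, the dim one described above. Probes that also match near-identical copies or pseudogenes cannot be told apart from those of the gene by these values.

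**Figure D3:**
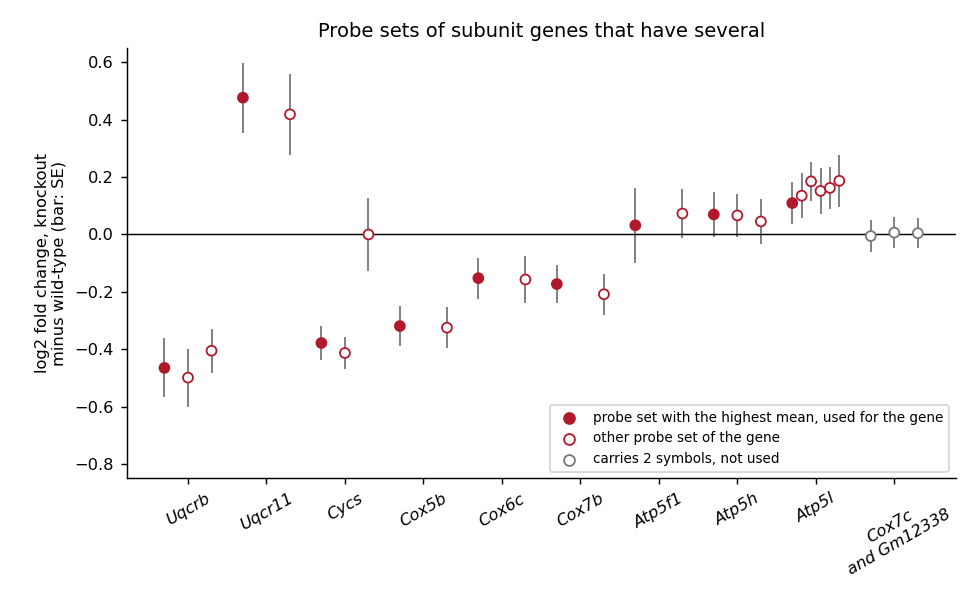
Log2 fold change, KO minus WT, of every probe set of the 9 subunit genes that have several, with its standard error as a bar; filled points mark the probe set used for the gene. Grey points are the 3 probe sets that carry Cox7c together with the pseudogene Gm12338, which lie at 0 and were not used. Repeated probe sets of a gene lie close together, apart from the dim one of Cycs.

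Of the 13 called subunits, Sdhd, Uqcrc1 and Cox5a lie on chromosome 9, as does H2ax, among 5 measured subunits there. Over the whole list 39.4% of subunits were called, against 33.4% of all genes. The calls of Sdhd, Uqcrc1 and Cox5a ended with the test of the study's methods. Leaving out a WT array ended them as well: replicate 3 for Sdhd, any replicate for Uqcrc1 and replicate 1 for Cox5a. Between H2ax and these genes lay 77 protein-coding genes for Sdhd, 162 for Cox5a and 613 for Uqcrc1. Atp5l, with 19 genes between, was the nearest subunit and did not pass, and Cox7a2, with 367 between, did not pass either. Whether sequence carried along with the deleted locus had a part in the values on this chromosome was not tested.

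Of 19 further subunits and tissue isoforms of these complexes, 1 was higher and 2 were lower (15.8% called, against 33.4% of all genes). Cox6b2, Cox7a1, Cox7b2, Cox8b, Cox8c and Cyct, mostly isoforms of muscle or testis, were not called and had means between 3.92 and 5.50, as low as the markers of other cell types or lower. The isoforms Cox6a2 and Cox4i2, not called either, lay above this range, at means of 6.70 and 6.05 in WT cells and 6.90 and 6.00 in KO cells. Cox7a2l, which bridges complexes III and IV in supercomplexes, was higher, by 0.99 on the log2 scale (adjusted p = 4.5e-06), above every subunit in the list of 34. Atp5g3, one of the genes for the proton-carrying ring of complex V, and 2010107E04Rik, a small protein of the same complex now named Atp5mpl, differed by -0.33 (adjusted p = 0.0020) and -0.39 (adjusted p = 0.0048). The only mitochondrial DNA-encoded subunit that was measured, mt-Co2 of complex IV, differed by -0.11 on that scale (adjusted p = 0.23).

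Factors that assemble complexes II to V were called in both directions, 10 higher and 8 lower of the 36 measured (27.8% and 22.2%, against 18.4% and 15.0% of all genes). With each array left out in turn, 8 to 15 were higher (15 without KO replicate 2) and 6 to 8 were lower. The largest rises were in Hccs, which attaches haem to cytochromes c and c1 (0.88, adjusted p = 0.00017), and Lrpprc, which stabilises mitochondrial mRNA (0.66, adjusted p = 3.2e-05), both as log2 fold changes. The largest falls were in Coa3 (-0.66, adjusted p = 2.8e-05) and Cox20 (-0.58, adjusted p = 0.00099), which act early in the assembly of complex IV around mt-Co1 and mt-Co2. Hccs was higher in the cells in which Cycs, one of its substrates, was lower.

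Of 12 measured genes of coenzyme Q synthesis, 4 were higher and 1 was lower (33.3% and 8.33%, against 18.4% and 15.0% of all genes). On the log2 scale, Pdss2, which makes the side chain, was higher by 1.12 (adjusted p = 1.8e-05), and Coq9, a lipid-binding partner of Coq7, by 0.94 (adjusted p = 5.8e-06). Coq4, a scaffold of the same pathway, differed by -0.67 (adjusted p = 5.2e-05). Of 11 carriers of ATP, phosphate and protons, 3 were higher and 1 was lower (27.3% and 9.09%, against 18.4% and 15.0% of all genes). Slc25a4, an ADP/ATP carrier that brings ADP to complex V, was higher by 0.42 (adjusted p = 0.0023), and the mitochondrial carrier genes Slc25a27 and Slc25a14 differed by 0.73 (adjusted p = 1.3e-05) and -0.32 (adjusted p = 0.0083), all on the log2 scale.

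Of 12 regulators of respiratory genes, 3 were higher and 3 were lower (25.0% each, against 18.4% and 15.0% of all genes). The largest rises were in Gabpa, the DNA-binding part of GABP that recognises the ETS core shown above for Uqcr11 and Sdhd (log2 fold change 0.55, adjusted p = 0.00024), and in the coactivator Pprc1 (0.52, adjusted p = 0.00010). The largest falls were in Nfe2l2, which drives antioxidant genes (-1.27, adjusted p = 4.1e-06), and in Ppargc1a, a coactivator of mitochondrial biogenesis (-0.58, adjusted p = 0.00045). Ppargc1a was at means of 5.43 in WT and 4.84 in KO cells, the level of the markers of other cell types, where signal above background was not established. Nrf1, which binds the NRF1 core, differed by 0.02 (adjusted p = 0.81). Of the 11 subunit genes with the ETS core, Uqcr11 was higher, Sdhd was lower and the others were not called, as given above.

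Complex I, which passes electrons from NADH to coenzyme Q, was set beside the other complexes. Of its 34 measured subunits 10 were higher and 7 were lower (29.4% and 20.6%, against 18.4% and 15.0% of all genes), with a median log2 fold change of -0.02. The number lower was 3 without WT replicate 2, 4 without KO replicate 3 and 4 with the replicate number as a block. The largest rises were in Ndufv1, which carries the NADH site (0.81, adjusted p = 6.3e-05), and Ndufs8, an iron-sulfur subunit (0.65, adjusted p = 4.5e-05). The largest falls were in Ndufa3 (-0.47, adjusted p = 0.0013) and Ndufs3 (-0.32, adjusted p = 0.0098). The range of the subunits of complexes II to V, up to 0.59, lay below the largest rises in complex I, and the difference between these lists was not tested.

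**Figure D4:**
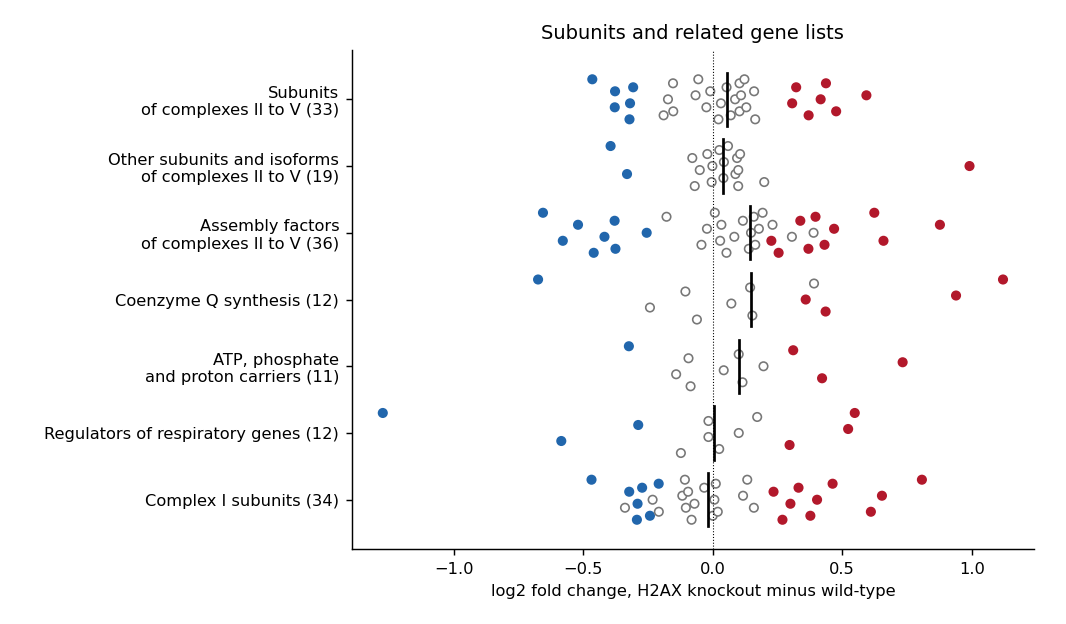
Log2 fold change, KO minus WT, of each gene in the subunit list and in 6 lists of related genes, with the number of measured genes in brackets and each list's median as a black line. Red and blue points passed an adjusted p under 0.05 as higher and lower, and open points did not; called genes lie on both sides of 0 in every list, with medians from -0.02 to 0.15.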

How the data were processed

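The members and the lists of related genes were chosen with earlier results of these data known. Per the labels and the study's methods, the authors made CHP files from the scans in Affymetrix Expression Console and used Partek (version 6.6) for normalization. What they deposited is a table of log2 expression for 35556 probe sets, with array medians of 6.06 to 6.12. The summarization method is not given in the sources used here. Identifiers match Mouse Gene 1.0 ST annotation, although the methods name version 2.0. Of 21789 probe sets with 1 symbol, 21698 matched a RefSeq gene table (GRCm38.p6), and 999 genes had several, of which the one with the highest mean was used. The 1621 probe sets with several symbols and 12146 without a listing were left out.

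KO was compared with WT with limma (version 3.58.1, R version 4.3.3) by lmFit and eBayes over 19938 genes, with Benjamini-Hochberg adjustment over all of them and no covariates. An exact permutation of 3 against 3 arrays cannot go below 0.10, so none was used. The study's methods used a one-way ANOVA and asked for a fold-change over 2 as well. The number of arrays limits the precision. Named genes were all members, the targeted gene, and, in each related list, up to 2 largest rises and falls that passed; markers were named also as defining genes. Alternatives were the replicate block, each array left out, one-way ANOVA, a trended robust prior, median centring, quantile normalization, dropping the dimmer 50% of genes, and averaging the probe sets of each gene. Values for every probe set were an addition made with the data in view. The comparison was tested on simulated data.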

Additional observations from a re-analysis of the deposited data

How the results depend on the processing

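Of the 13 called subunits, Atp5c1, Atp5o, Cox4i1, Cox5b, Cycs and Sdhc passed under all 13 alternatives, and no call changed direction. The methods' one-way ANOVA, which estimates each gene's spread from its own arrays, ended the calls of Sdhd, Uqcrc1, Uqcrb, Uqcrq, Uqcr10, Uqcr11 and Cox5a. It left 2 subunits higher, 1 lower in complex II, 0 higher and 0 lower in complex III and 1 higher in complex IV, and in the related lists 1 lower among other subunits, 6 higher and 4 lower among assembly factors, 0 lower among carriers and 3 lower in complex I. Numbers did not pair the arrays (correlations of deviations of -0.25, -0.15 and 0.07), and the replicate block left 7 subunits higher and 6 lower but 4 lower in complex I, against 7. Other subunits higher came to 2 with median centring and with quantile normalization, and complex IV lower to 2 with a trended robust prior. Carriers lower came to 0 without the dimmest genes, a setting that takes genes out of the count and does not retest those taken out. Cytochrome c came to a log2 fold change of -0.26 when its probe sets were averaged. Leaving out each array gave 5 to 7 subunits higher, 5 to 6 lower, 1 to 2 lower in complex II (median -0.20 to -0.10), 1 to 2 higher in complex IV, 1 to 2 higher among other subunits, 1 to 2 lower in coenzyme Q synthesis and 3 to 7 lower in complex I (3 without WT replicate 2, 4 without KO replicate 3). Estimates that changed sign did not pass: with median centring Sdha came to 0.014 and Uqcrfs1 to 0.029, and with each array left out Sdha ran from -0.075 to 0.042, Uqcrc2 from -0.135 to 0.029, Uqcrfs1 from -0.093 to 0.074, Cox6b1 from -0.058 to 0.211, Cox7a2 from -0.012 to 0.066 and Atp5f1 from -0.082 to 0.181. The causes were not tested. The arrays were normalized before deposit, and total RNA per cell was not measured.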

Other observations

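Cox7c, a small membrane subunit of complex IV, has no probe set of its own in this annotation. It is carried by 3 probe sets that are shared with the pseudogene Gm12338, and their log2 fold changes, KO minus WT, were -0.01, 0.01 and 0.00, at mean log2 values of 12.48, 12.51 and 12.49 in WT cells and 12.48, 12.52 and 12.50 in KO cells. The signal of the gene and that of its copy cannot be told apart by these probe sets.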
